A study of Homo sapiens with 24 samples.

Results

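The mRNAs described here carry the gene symbols given to nuclear subunits of respiratory complex I. They were chosen by gene symbol, as NDUFA, NDUFB, NDUFC, NDUFS or NDUFV followed by a number, without pseudogenes and without the NDUFAF assembly factors. The choice was made with earlier results of these data known. The rule took 37 of the 61853 gene rows in the table, and all 37 were among the 18907 genes with enough counts to be tested. It keeps NDUFA4, now counted with cytochrome c oxidase, and leaves out NDUFAB1.

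Complex I takes electrons from NADH to ubiquinone at the start of the respiratory chain and pumps protons across the inner mitochondrial membrane. Its matrix arm holds the NADH-binding module, with the flavin and most iron-sulfur clusters, and the ubiquinone-binding module. Its membrane arm is built on the ND proteins made inside mitochondria. The nuclear core subunits carry the catalytic chemistry, and the accessory subunits surround and stabilise the core. All nuclear subunits are translated from cytoplasmic mRNAs and imported.

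RNA came from 293T cells, an established human embryonic kidney line, in which DIS3 was knocked down with the short hairpin RNA DIS3-sh2 and then rescued, either by wild-type DIS3 (WT) or by the D146N form. DIS3 is a catalytic subunit of the RNA exosome, and D146N changes a residue of its endonuclease domain. Cytoplasmic RNA was separated on a sucrose density gradient, and fractions 3, 4, 7 and 8 were depleted of ribosomal RNA and sequenced. Each genotype and fraction made 1 group, 8 in all, with 3 libraries apiece. The WT groups carry the knockdown too, so no group is unmanipulated. Whether fraction numbers count up from the light or the heavy end is not given in the labels. The design text calls the replicates biological but names no separate cultures, so the p-values measure the spread between these libraries.

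Library totals ran from 21.2 to 33.0 M counts, and the 37 mRNAs took 15796 to 33377 counts of a library. Levels are in CPM, a gene's counts relative to the library total. Gene length was not used, so levels are compared between libraries of a gene and not between genes. The tests of fold changes cover only counting error and the spread between libraries of a group. That spread was estimated over all 24 libraries together, with 3 per group. DIS3 itself averaged 98.4, 95.1, 4.93 and 5.88 CPM across the WT fractions in numerical order, and 8.59, 9.13, 101 and 97.6 CPM across those of D146N. The table does not separate the restored DIS3 from the endogenous one, so these levels do not check the genotype labels. Of the 6 genes set as markers of 293T cells, VIM, KRT8, KRT18 and LIN28B were measured in every group, and NEFL and NEFM were low. Of the 8 genes set as markers of other cells, CD3E and INS were at 0 in every group, and PTPRC, HBB and COL1A2 had group means under 1 CPM, with up to 1.37 CPM of HBB in a single library. As group means, the liver gene ALB was at 119 to 137 CPM in WT fractions 3 and 4 and D146N fractions 7 and 8 and at 5.66 to 14.2 elsewhere, APOA1 reached 2.54 CPM and COL1A1 9.93 CPM in the same groups. Their part in the results was not tested.

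Apart from neighbouring fractions, the groups with the fewest differing genes had crossed labels, which bears on every result that follows. Between fractions 7 and 8 and fractions 3 and 4 of WT, 73.9% of the genes tested differed. Between D146N fractions 7 and 8 and WT fractions 3 and 4, the share was 17.3%, and between D146N fractions 3 and 4 and WT fractions 7 and 8 it was 29.2%. Rows of small structured RNA, ribosomal RNA and mitochondrial RNA took 49.4% and 49.2% of counts for WT fractions 3 and 4, much as the 46.2% and 46.9% for D146N fractions 7 and 8. Their part was 70.3% and 68.0% for WT fractions 7 and 8, near the 74.7% and 75.1% for D146N fractions 3 and 4. An exchange of labels, of fraction order or of position in the gradient cannot be told apart from an effect of the genotype in these files, and genotype and fraction are used below as labelled. In addition, replicate 3 of WT fraction 8 stood apart. Its correlation with the other libraries of its group fell to 0.965, against at least 0.985 among the libraries of each other group.

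Summed over all 37 genes, NDUFA4 among them, complex I mRNA was a small share of each library, and its ranking depended on what it was set against. The share of all counts was 0.111% ± 0.00402 in WT fraction 3 (SD, n = 3, as for the values that follow). WT fraction 4 had 0.111% ± 0.00147, fraction 7 had 0.0990% ± 0.00381 and fraction 8 had 0.0992% ± 0.00457. The D146N shares were 0.0708% ± 0.00084, 0.0687% ± 0.00208, 0.143% ± 0.00173 and 0.141% ± 0.00069 for fractions 3, 4, 7 and 8. The WT and D146N libraries did not overlap in any fraction: D146N lay below WT in fractions 3 and 4 and above it in fractions 7 and 8. The ratio of D146N to WT was 0.639, 0.618, 1.45 and 1.42 in fractions 3, 4, 7 and 8. An exact two-sided permutation test gave p = 0.1 in each fraction, the smallest that 3 against 3 libraries allow.

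Without the small, ribosomal and mitochondrial RNA rows in the denominator, the order turned. The share was then 0.219% for WT fractions 3 and 4 alike, 0.333% for fraction 7 and 0.313% for fraction 8. D146N shares were 0.280%, 0.275%, 0.266% and 0.266%. The ratio of D146N to WT became 1.28, 1.26, 0.801 and 0.850, again with an exact p of 0.1 in each fraction. One library set the lower value of WT fraction 8: replicate 3 lay at 0.267% and the others at 0.337% and 0.335%.

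**Figure D1:**
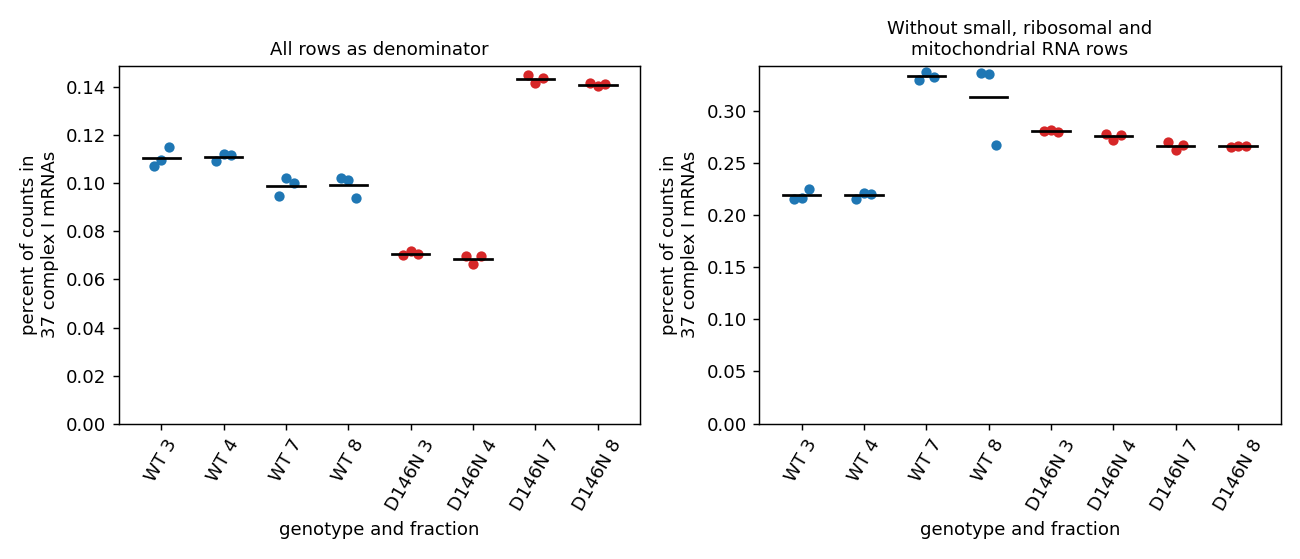
Percent of a library's counts in the 37 complex I mRNAs, by genotype and fraction (WT blue, D146N red; points are libraries, lines are means of 3). With all rows as denominator (left) D146N fractions 7 and 8 are highest, and without small, ribosomal and mitochondrial RNA rows (right) WT fraction 7 is highest, with 1 library of WT fraction 8 at 0.267%.

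The members did not move as a block. Set against the total of complex I counts, which needs no scaling between libraries, 3 mRNAs formed 11.9% in both WT fraction 3 and fraction 4, against 1.12% (fraction 7) and 1.33% (fraction 8). These 3, picked after their values were seen, were NDUFS1, NDUFV1 and NDUFA9. In D146N they formed 1.87% and 2.095% of the total for fractions 3 and 4, and 10.02% and 9.62% for fractions 7 and 8. NDUFA4 ran the other way in WT, with 5.25% and 5.29% for fractions 3 and 4 against 14.4% and 13.4% for fractions 7 and 8. In D146N its part was 10.7% for fractions 3 and 4 alike, then 5.21% and 5.42%. The 20 accessory subunits of the membrane arm together kept between 56.2% and 63.3% in every group.

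Fold changes came from edgeR's quasi-likelihood test over all 24 libraries with TMM scaling, which sets the typical gene near 0. A gene was called at a Benjamini-Hochberg adjusted p under 0.05. TMM factors were 2.47 to 2.83 in WT fractions 3 and 4 and D146N fractions 7 and 8. They were 0.349 to 0.531 in the other groups. A fold change below is thus relative to the typical gene and can have another sign than the ratio of 2 CPM values. On library totals alone the median gene fell by 2.83 (log2) in WT and rose by 3.00 in D146N from fractions 3 and 4 to 7 and 8.

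In WT, 33 of the 37 mRNAs were higher in fractions 7 and 8 than in 3 and 4 relative to the typical gene, and 4 were lower. Over all genes tested, 34.6% were called higher and 39.3% lower. The median log2 fold change of the members was 2.51, against -0.18 over all genes. On library totals without factors 8 were called higher and 17 lower, with a median of -0.14, against -2.83 over all genes. On totals without small, ribosomal and mitochondrial RNA rows 24 were higher and 9 lower. The median was then 0.56, against -2.09 over all genes. Across these scalings and median-of-ratios factors, 8 members were called higher every time: NDUFA4, NDUFV2, NDUFA7, NDUFA11, NDUFB4, NDUFB8, NDUFB9 and NDUFB11. Another 4 were called lower every time, among them NDUFS1, NDUFV1 and NDUFA9. Median-of-ratios factors gave a members' median of 2.60, close to that of TMM. The share of all genes called alike in all 4 scalings was not counted, for this contrast or those that follow.

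In D146N the same contrast turned over with TMM scaling: 33 members were lower in fractions 7 and 8 and 4 were higher. Of all genes tested, 30.3% were called lower and 29.9% higher. The members' median was -1.68, against 0.10 over all genes. On library totals without factors 35 were called higher and 1 lower. The median was then 1.25, against 3.00 over all genes, so the members rose less than the median gene. On totals without small, ribosomal and mitochondrial RNA rows 18 were higher and 14 lower, with medians of 0.15 and 1.90. NDUFS1, NDUFV1 and NDUFA9 were called higher in each of the 4 scalings, and NDUFV2 was the single member called lower in each.

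**Figure D2:**
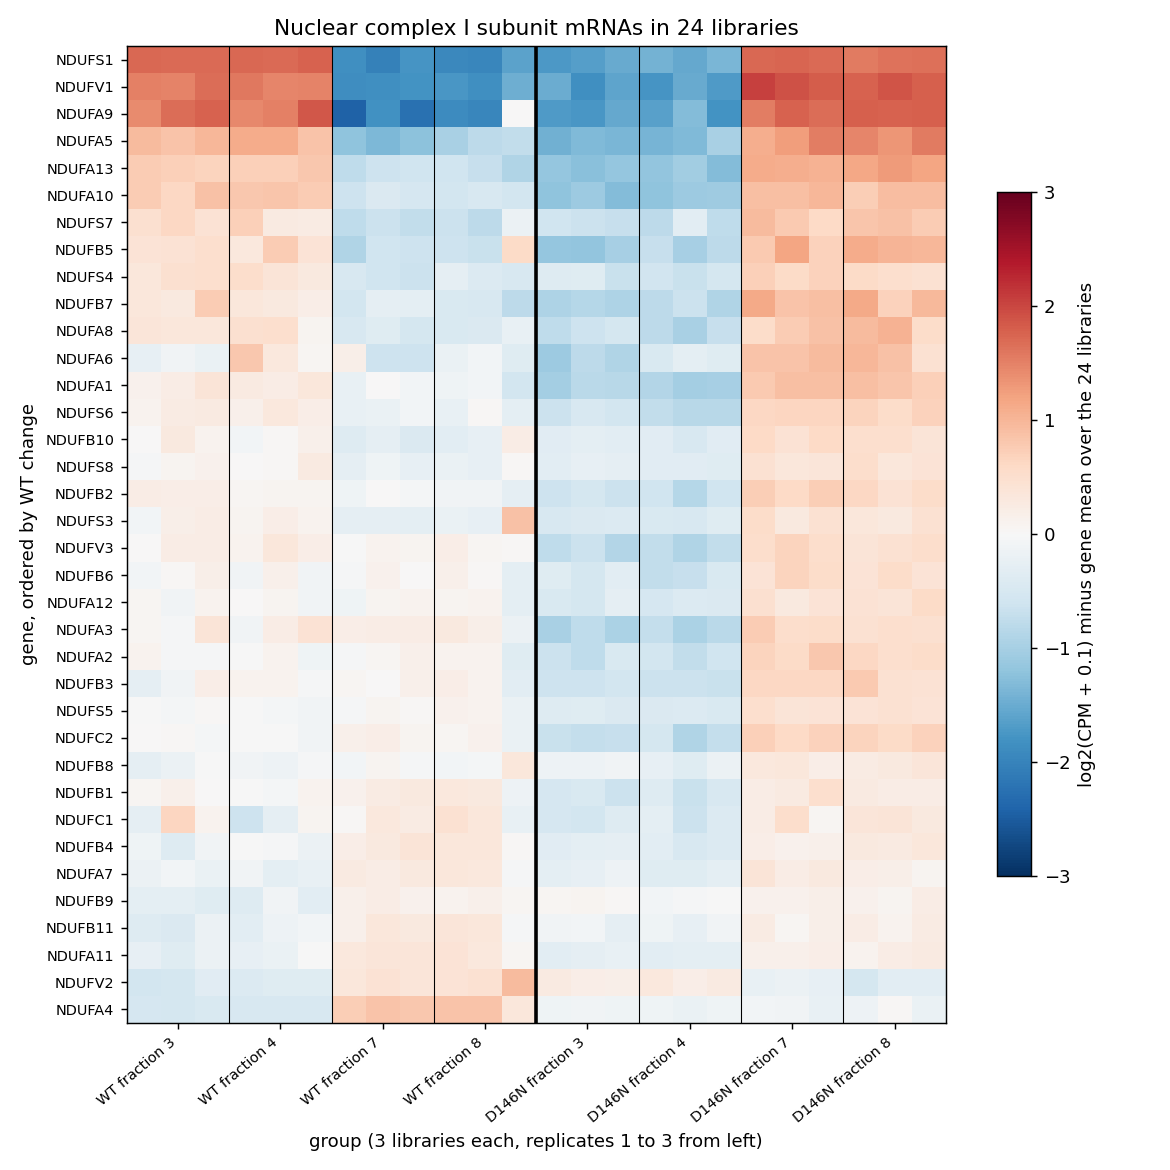
log2(CPM + 0.1) of 36 genes, each minus its mean over the 24 libraries (columns: 3 libraries per group; rows: genes ordered by the TMM-scaled WT change). The top rows, NDUFS1, NDUFV1 and NDUFA9, are high in WT fractions 3 and 4 and D146N fractions 7 and 8 and low elsewhere, and the right-hand library of WT fraction 8 departs from its group in NDUFA9 and NDUFS3.

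The NADH-binding module has 3 nuclear core subunits, and they did not move together. NDUFV1 carries the flavin and the NADH site (chr11:67606936-67612554, build GRCh38.p14). Its level was 34.4, 34.1 and 38.9 CPM in WT fraction 3 and 36.4, 33.5 and 34 in fraction 4. It was 3.26, 3.31 and 3.39 CPM in WT fraction 7 and 3.54, 3.29 and 4.34 in fraction 8. The WT pairs of fractions were about an order of magnitude apart with no overlap. In D146N it was 4.24, 3.29 and 3.96 CPM for fraction 3, 3.46, 4.15 and 3.65 for fraction 4, 50.4, 45.3 and 42.6 for fraction 7, and 41.2, 44.7 and 42.3 for fraction 8. Here fractions 7 and 8 were the high ones, again without overlap. The log2 fold change with TMM was -0.65 ± 0.0771 in WT (SE, adjusted p = 2.68e-09) and 0.63 ± 0.0781 in D146N (adjusted p = 1.2e-08).

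NDUFS1, the large iron-sulfur subunit of that module (chr2:206114817-206159444), followed the pattern of NDUFV1. It stood at 82.1, 80.9 and 81.7 CPM in WT fraction 3 and 82.9, 81.3 and 84.7 in fraction 4, then at 6.95, 6.05 and 7.21 in fraction 7 and 6.5, 6.31 and 8.18 in fraction 8. D146N libraries held 7.48, 7.84 and 8.70 CPM in fraction 3 and 9.26, 8.56 and 9.56 in fraction 4, against 82.7, 84.0 and 81.9 in fraction 7 and 74.1, 77.7 and 78.5 in fraction 8. The high and the low groups were separate, and the high groups were WT fractions 3 and 4 and D146N fractions 7 and 8. Its log2 fold change was -0.90 ± 0.0606 in WT (adjusted p = 1.14e-15) and 0.30 ± 0.0604 in D146N (adjusted p = 6.62e-05).

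NDUFV2, an iron-sulfur subunit that sits beside NDUFV1 in the same module, went the opposite way. WT fraction 3 held 11.7, 11.9 and 13.6 CPM and fraction 4 held 13.0, 13.3 and 13.4, while fraction 7 held 21.9, 23.2 and 22.3 and fraction 8 held 23, 23.5 and 33.4. In D146N the levels were 20.7, 19.8 and 19.5 CPM for fraction 3, 21.3, 19.8 and 20.9 for fraction 4, 14.7, 15.3 and 14.4 for fraction 7, and 11.9, 13.7 and 13.8 for fraction 8. It was thus the partner that was lower where NDUFV1 and NDUFS1 were high, in both genotypes and on the plain CPM scale. Its log2 fold change with TMM was 3.60 ± 0.0616 in WT (adjusted p = 4.7e-33) and -3.47 ± 0.0618 in D146N (adjusted p = 1.4e-32). The counts of NDUFV2 were not whole numbers in 100% of libraries, and the deposited values do not show where the remaining parts of those reads were assigned.

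**Figure D3:**
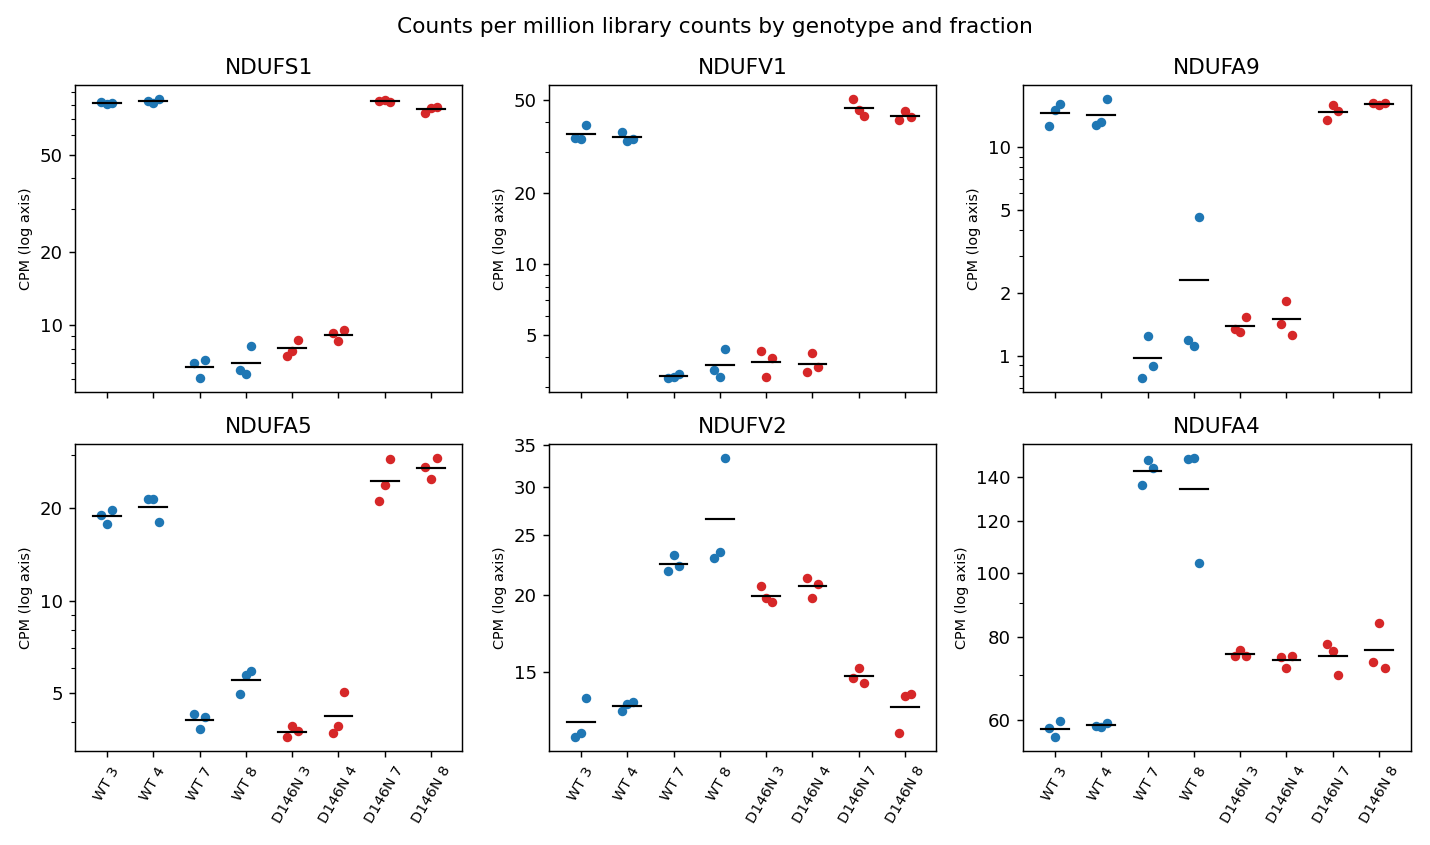
CPM (log axes, which differ between panels) of 6 complex I genes by genotype and fraction (WT blue, D146N red; points are libraries, lines are means of 3). NDUFS1, NDUFV1, NDUFA9 and NDUFA5 are high in WT 3 and 4 and D146N 7 and 8, NDUFV2 is low there, and NDUFA4 is highest in WT 7 and 8.

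NDUFS3, NDUFS7 and NDUFS8, core subunits of the ubiquinone-binding module, varied less in CPM than NDUFV1 and NDUFS1. NDUFS3 ranged from 28.3 to 34.8 CPM (median 33.0) over the 6 libraries of WT fractions 3 and 4, and from 24.3 to 54.7 (median 24.9) in WT fractions 7 and 8. The upper end was replicate 3 of fraction 8, and without it the WT groups did not overlap. In D146N it ranged from 21.3 to 23 CPM (median 21.9) in fractions 3 and 4 and from 36.7 to 43.7 (median 39.3) in fractions 7 and 8. NDUFS8, which holds iron-sulfur clusters, had medians of 32.4 and 26.8 CPM in the WT pairs and 25.0 and 40.9 in the D146N pairs. NDUFS7, which carries the last cluster before ubiquinone, had medians of 16.0 and 7.17 CPM in WT and 7.25 and 20.6 in D146N. All 3 were called higher in WT (log2 fold changes 2.51, 1.58 and 2.43 for NDUFS3, NDUFS7 and NDUFS8) and lower in D146N (-2.08, -1.48 and -2.20) with TMM. These directions turned on library totals, to -0.14, -1.09 and -0.25 in WT and 0.84, 1.44 and 0.72 in D146N. For NDUFS7 the direction also turned on totals without the small, ribosomal and mitochondrial RNA rows, to -0.38 in WT and 0.35 in D146N.

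Among the 9 accessory subunits of the matrix arm, 8 were called higher in WT and lower in D146N with TMM, and NDUFA9 was called the other way in both. The shares of all genes called were 34.6% higher in WT and 30.3% lower in D146N. On library totals all 9 were called higher in D146N, NDUFA9 with them, while 1 was called higher and 4 lower in WT. The median gene rose by 3.00 in D146N and fell by 2.83 in WT on that scale. On totals without small, ribosomal and mitochondrial RNA rows 5 were higher and 3 lower in WT, and 5 and 2 in D146N. The medians over all genes were then -2.09 and 1.90. NDUFA9, which lies near the ubiquinone pocket, stood at 12.6, 15.0 and 16.1 CPM in WT fraction 3 and 12.7, 13.3 and 17.0 in fraction 4. It stood at 0.783, 1.24 and 0.898 CPM in WT fraction 7 and 1.19, 1.12 and 4.63 in fraction 8. In D146N the libraries held 1.35, 1.30 and 1.54 CPM for fraction 3, 1.42, 1.83 and 1.26 for fraction 4, 13.6, 16.0 and 14.9 for fraction 7, and 16.2, 16.0 and 16.3 for fraction 8. The groups did not overlap, but replicate 3 of WT fraction 8 lay well above the other low libraries. The log2 fold change was -0.63 ± 0.182 in WT (adjusted p = 0.00322) and 0.49 ± 0.188 in D146N (adjusted p = 0.0272). The D146N call was lost without replicate 2 of D146N fraction 3 (adjusted p = 0.0508), and without replicate 1 or 3 of D146N fraction 4 (0.0544 and 0.0674).

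NDUFA5, a matrix-arm accessory subunit, shared the CPM pattern of NDUFA9 at a smaller contrast. Over 6 libraries each it ranged from 17.8 to 21.4 CPM (median 19.4) in WT fractions 3 and 4 and from 3.79 to 5.87 (median 4.60) in fractions 7 and 8. In D146N it ranged from 3.57 to 5.01 CPM (median 3.81) in fractions 3 and 4 and from 21.2 to 29.2 (median 26.1) in fractions 7 and 8. With TMM it was nevertheless higher by 0.63 ± 0.0921 (log2) in WT (adjusted p = 1.56e-07), and its -0.22 ± 0.0953 in D146N was at the threshold (adjusted p = 0.0484). The D146N call was lost when any of 22 of the 24 libraries was left out, with log2 fold changes of -0.25 to -0.02 over all 24. On library totals the values were -2.05 in WT and 2.71 in D146N. NDUFA6 was measured at 0.345 to 1.45 CPM as group means, the fewest counts of any member, and its TMM-scaled folds carried the widest errors.

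All 20 accessory subunits of the membrane arm were called higher in WT fractions 7 and 8 and lower in D146N fractions 7 and 8 with TMM, with medians of 2.72 and -1.81. Of all genes, 34.6% were called higher in WT and 30.3% lower in D146N. On library totals the D146N direction turned for all 20, which were called higher there with a median of 1.12, against 3.00 over all genes. In WT 5 were higher and 8 lower with a median of 0.019, against -2.83 over all genes. On totals without small, ribosomal and mitochondrial RNA rows 15 were higher and 2 lower in WT, and 9 and 8 in D146N. The medians over all genes were then -2.09 and 1.90. NDUFB9 is one of the subunits at the far end of that arm. It was at 42.9, 43.3 and 41.1 CPM for WT fraction 3, 40.5, 48.9 and 42.5 for fraction 4, 58.3, 61.5 and 58.0 for fraction 7, and 57.1, 58.6 and 55.1 for fraction 8. The D146N libraries held 54.5, 55.6 and 54.2 CPM for fraction 3, 49.96, 51.4 and 52.6 for fraction 4, 57.4, 57.6 and 59.8 for fraction 7, and 57.5, 55.7 and 61.1 for fraction 8. The WT pairs did not overlap, while the D146N pairs were separated by less than 1 CPM. The log2 fold changes with TMM were 3.12 ± 0.0780 in WT (adjusted p = 1.57e-28) and -2.79 ± 0.0770 in D146N (adjusted p = 4.61e-27). The D146N direction turned to 0.13 on library totals.

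NDUFA11 and NDUFB11, both membrane-embedded, had the other top WT changes of this arm, at 3.21 each. NDUFA11 had medians of 33.0 and 48.4 CPM in the WT pairs and NDUFB11 had 37.5 and 55.1. In D146N their medians were 31.2 and 43.5 CPM and 40.7 and 50.9, so that both were higher in CPM there too, with TMM log2 fold changes of -2.46 and -2.59 and library-total values of 0.47 and 0.33. At the low end of the arm, NDUFA13, which lies where the arms meet, ranged from 29.2 to 32.5 CPM in WT fractions 3 and 4 and from 9.87 to 12.2 in fractions 7 and 8. In D146N it ranged from 7.41 to 8.91 CPM and from 38.3 to 45.0 in the same order. In CPM it therefore resembled NDUFA5, with no overlap in either genotype, and with TMM it was higher by 1.27 in WT and changed by -0.58 in D146N. On library totals these were -1.43 and 2.34, and on totals without small, ribosomal and mitochondrial RNA rows -0.70 and 1.25.

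NDUFA4 was first described with complex I and is now counted as a subunit of cytochrome c oxidase, which RefSeq records by the name COXFA4 (chr7:10931943-10940153). It held 58.2, 56.4 and 59.6 CPM in WT fraction 3 and 58.7, 58.4 and 59.2 in fraction 4. It held 136, 148 and 144 CPM in fraction 7 and 149, 149 and 104 in fraction 8. WT fractions 7 and 8 were above all other groups, and the lowest of their libraries was again replicate 3 of fraction 8. In D146N the levels were flat on this scale, with group means of 75.4, 73.8, 74.8 and 76.4 CPM in fractions 3, 4, 7 and 8 and SDs of 0.989 to 6.70. Its WT log2 fold change of 3.95 ± 0.121 was the highest of the 37 (adjusted p = 8.39e-20) and remained 1.24 on library totals. The D146N value of -2.91 ± 0.116 (adjusted p = 4.47e-17) became 0.02 on library totals.

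**Figure D4:**
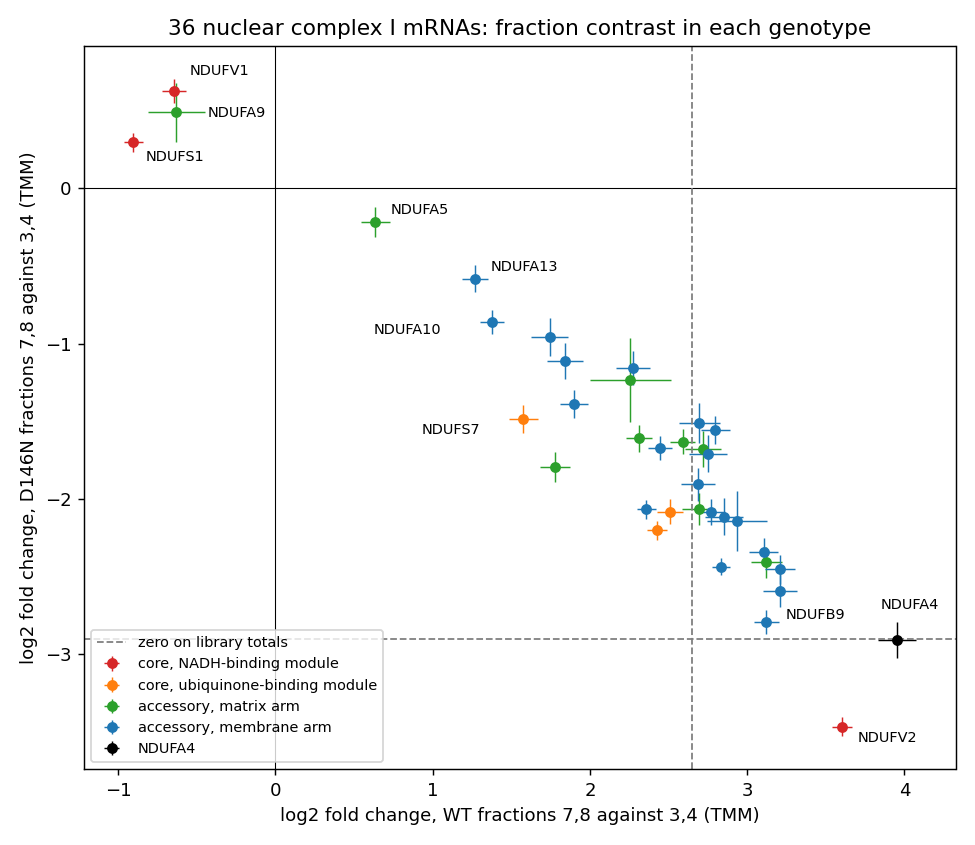
TMM-scaled log2 fold change of fractions 7 and 8 against 3 and 4 in WT (x axis) and D146N (y axis), 1 point for each of 36 genes coloured by role, bars are standard errors. Dashed lines mark about where 0 falls on library totals, where most points change sign on the y axis; NDUFS1, NDUFV1 and NDUFA9 lie alone at upper left and NDUFV2 and NDUFA4 at lower right.

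The folds of both genotypes, which share no libraries, ran opposite to each other across the 37 genes, with a Pearson correlation of -0.947 and a Spearman correlation of -0.912. This describes the genes, which share libraries and scaling factors and are not independent. The correlation was not computed over all genes tested, so it is not shown to be particular to these members. Gene span, the genomic length from start to end, had a Spearman correlation of -0.31 with the WT fold and 0.27 with the D146N fold across the 37 genes. The difference between the 2 fraction contrasts, tested as an interaction (D146N minus WT), was called for every member with TMM: 33 were lower and 4 higher. Of all genes tested, 35.4% were lower and 41.7% higher. On library totals 30 members were higher and 3 lower, with a median of 1.27, against 5.88 over all genes. On totals without small, ribosomal and mitochondrial RNA rows 12 were higher and 22 lower, with medians of -0.54 and 4.04. Among the members called the same way in all 4 scalings were NDUFS1, NDUFV1 and NDUFA9, which were higher, and NDUFV2, NDUFA4 and NDUFB9, which were lower.

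Within a fraction label, D146N was compared with WT directly. With TMM, 33 members were higher and 3 lower in fraction 3 and likewise in fraction 4, with medians of 2.08 and 2.07. The backgrounds were 25.8% higher and 23.9% lower in fraction 3, and 25.7% and 22.8% in fraction 4. NDUFV2 and NDUFA4 led the members higher in D146N in fraction 3, at 3.46 ± 0.0873 and 3.16 ± 0.166 (adjusted p = 1.72e-27 and 2.34e-14). NDUFS1 and NDUFV1 were among the 3 lower in both fractions, at -0.57 and -0.45 in fraction 3. NDUFA9 was not called in fraction 3 (-0.60, adjusted p = 0.0629) or in fraction 4 (-0.48, adjusted p = 0.144). Without replicate 3 of WT fraction 8, which enters these fits only through the shared spread and scaling, NDUFA9 was called in both, at -0.62 and -0.49 (adjusted p = 0.00225 and 0.0149). The fraction 3 call was also gained without replicate 1 of WT fraction 3 and without any single library of WT fraction 4, WT fraction 8, D146N fraction 7 or D146N fraction 8.

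In fraction 7, 4 members were higher in D146N and 33 lower (backgrounds 32.4% and 31.1%, members' median -2.31). In fraction 8, 3 were higher and 33 lower (backgrounds 32.5% and 32.6%, median -2.15). NDUFV1 was higher by 0.85 ± 0.110 in fraction 7 and 0.82 ± 0.108 in fraction 8 (adjusted p = 2.42e-08 and 3.24e-08). NDUFA4 and NDUFV2 were the lowest members, at -3.88 and -3.55 in fraction 7 and -3.58 and -3.71 in fraction 8. NDUFA9 was higher in fraction 7 (0.98 ± 0.276, adjusted p = 0.00301) and not called in fraction 8 (0.17 ± 0.237, adjusted p = 0.539). Without replicate 3 of WT fraction 8 it was 0.94 in fraction 8 (adjusted p = 5.67e-05). On library totals the members' medians turned in all 4 fractions, to -0.70, -0.71, 0.63 and 0.57. The medians over all genes were then -2.85, -2.85, 3.08 and 2.78. NDUFS1 and NDUFV1 were called the same way in all 4 scalings in every fraction, lower in 3 and 4 and higher in 7 and 8. NDUFV2 and NDUFA4 were also called in every fraction and scaling, in the reverse directions. NDUFB9 was higher in fractions 3 and 4 and NDUFA9 higher in fraction 7 in all 4 scalings.

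Both crossed comparisons set groups of similar library makeup side by side, and there the members' folds were small. They differ in genotype label and fraction label at once, so the 2 factors cannot be told apart. D146N fractions 7 and 8 had 18 members higher and 1 lower than WT fractions 3 and 4, with a median of 0.26 (all genes 0.01). Over all genes tested, 6.9% were higher and 10.4% lower. The 18 were also called higher in each of the other 3 scalings, with 29 on library totals and 27 without replicate 3 of WT fraction 8. The shares of all genes given here belong to the main fit and not to these other fits. On library totals the members' median was 0.41, against 0.16 over all genes. NDUFC2, a membrane-arm subunit, ranged from 21.9 to 24.4 CPM (median 23.5) in WT fractions 3 and 4 and from 35.6 to 39.2 (median 38.2) in D146N fractions 7 and 8, without overlap. Its log2 fold change was 0.54 ± 0.0881 (adjusted p = 3.59e-05). NDUFA6 had a larger value of 0.64 ± 0.244 but was not called (adjusted p = 0.0662). It was called on library totals, with DESeq2, and without replicate 1 of WT fraction 4 or replicate 3 of D146N fraction 8. NDUFA9 and NDUFA10, the lowest accessory members here, were at -0.05 and -0.03 and not called.

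NDUFS1 was the single member lower in that comparison, by -0.19 ± 0.0558 (adjusted p = 0.0135). Its call was lost on library totals (-0.05), on totals without small, ribosomal and mitochondrial RNA rows (-0.12, adjusted p = 0.0955), with no filter on low counts (-0.19) and without any of 4 libraries: replicate 1 of WT fraction 3, replicate 3 of WT fraction 4, replicate 3 of D146N fraction 7 or replicate 1 of D146N fraction 8. Without those libraries the adjusted p ran from 0.0524 to 0.0731. NDUFV1 was higher by 0.19 ± 0.0672, at the threshold (adjusted p = 0.0496), and its call was lost when any of 11 of the 24 libraries was left out. NDUFV2 (-0.02 ± 0.0597, adjusted p = 0.831) was not called.

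D146N fractions 3 and 4 had 23 members lower and 2 higher than WT fractions 7 and 8, with a median of -0.38 (all genes 0.01). Of all genes tested, 12.1% were lower and 17.1% higher. NDUFA3, a small membrane-arm subunit, ranged from 17.0 to 23.7 CPM in WT fractions 7 and 8 and from 9.75 to 11.7 in D146N fractions 3 and 4, and fell by 0.95 on the log2 scale (SE 0.129, adjusted p = 8.24e-06). NDUFV3, a small subunit of the NADH-binding module, ranged from 33.0 to 38.3 CPM and from 17.8 to 21.1, with a log2 fold change of -0.78 ± 0.0790 (adjusted p = 1.24e-09). NDUFA4 changed by -0.82 ± 0.109 (adjusted p = 2.42e-06). NDUFS1 was among the 2 members that were higher (0.42 ± 0.0647, adjusted p = 4.77e-06). NDUFA9 (0.09) and NDUFS4 (0.03) were not called, and NDUFA9 was 0.47 without replicate 3 of WT fraction 8 (adjusted p = 0.0256). In all 4 scalings 17 members were lower, and NDUFS1 was higher.

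**Figure D5:**
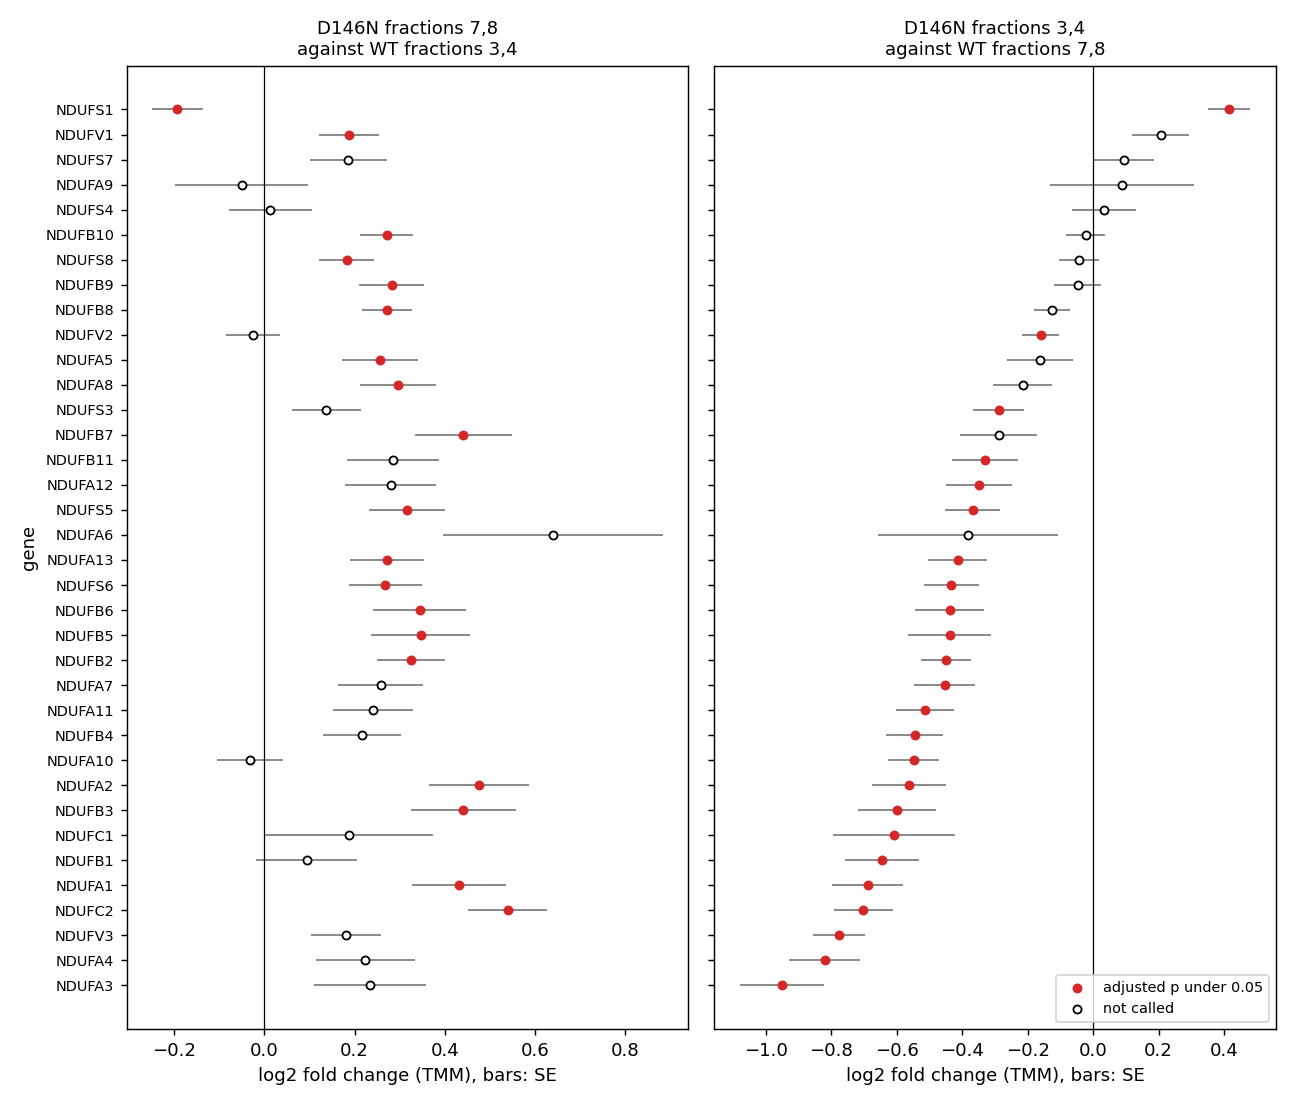
TMM-scaled log2 fold change of 36 genes in the 2 comparisons that cross genotype and fraction labels (points with standard errors; filled red, adjusted p under 0.05; axes differ). On the left 18 genes are called higher and NDUFS1 alone lower, and on the right 23 are lower while NDUFS1 is higher; NDUFS1's call on the left is lost on library totals and on totals without small, ribosomal and mitochondrial RNA rows.

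Neighbouring fractions differed by no adjusted call in the main fit, which does not show that they are alike. With edgeR, 0 members were called between fractions 4 and 3 or between 8 and 7 in either genotype, and 0% of the 18907 genes were called. At an unadjusted p under 0.05, 0 members passed for WT 4 against 3, 7 for WT 8 against 7, 1 for D146N 4 against 3 and 0 for D146N 8 against 7. DESeq2 called 0 members in each, and edgeR with no filter on low counts called 1 higher for WT 8 against 7. Over all genes, 830, 1727, 765 and 653 passed the unadjusted threshold in that order. The members' medians were 0.02, -0.18, -0.02 and 0.01. Without replicate 3 of WT fraction 8 the WT 8 against 7 median was 0.02.

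The other genes of the pathway were taken from lists by name. The 7 ND mRNAs, made inside mitochondria, gave 1 higher and 6 lower in WT with TMM (median -0.46), and 2 higher and 5 lower in D146N (median -1.09). Of all genes tested, 34.6% were called higher and 39.3% lower in WT, and 29.9% and 30.3% in D146N. MT-ND3 was the one higher in WT (1.52) and was -2.23 in D146N. MT-ND5 and MT-ND4L were the lowest in WT, at -0.94 and -0.92, and MT-ND2 was at -0.21. MT-ND5 ran from 1747 to 1877 CPM in WT fractions 3 and 4 and from 116 to 284 in fractions 7 and 8, so in CPM it fell with NDUFS1 and NDUFV1. On library totals MT-ND3 turned to -1.16 in WT and 0.70 in D146N. In mean CPM of each fraction pair, all 7 ND mRNAs fell in WT and rose in D146N. The D146N means went from 246 to 399 CPM for MT-ND3 and from 288 to 2733 CPM for MT-ND5. These mRNAs lie in mitochondria, and the part of mitochondria in any fraction was not measured.

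Of 18 genes for assembly factors and the acyl carrier protein NDUFAB1, 15 were higher and 1 lower in WT with TMM. In D146N 2 were higher and 12 lower with TMM. For this list and the next, the shares of all genes were 34.6% higher and 39.3% lower in WT. In D146N they were 29.9% and 30.3%. NDUFAF8 and NDUFAB1 were the highest in WT, at 3.95 and 3.24, and were -3.32 and -2.50 in D146N. FOXRED1, a flavoprotein needed for assembly, was the one lower in WT, at -0.49 (adjusted p = 0.000114), and was 0.42 in D146N. ACAD9, which acts in assembly too, was at -0.03 in WT and not called, and was -2.70 on library totals. In mean CPM of each fraction pair, all genes of this list but NDUFAF4, NDUFAF8 and NDUFAB1 fell in WT. All but NDUFAF8 rose in D146N. Of 40 nuclear subunits of complexes II to V, 32 were higher and 4 lower in WT with TMM (median 2.98). In D146N 5 were higher and 31 lower with TMM (median -1.91). In mean CPM of each fraction pair, ATP5F1D, ATP5F1E, ATP5MC2, ATP5MJ, ATP5PF and COX5A fell in D146N and the others of this list rose. The WT directions in CPM were mixed. Calls of both lists were not counted on the other scalings. No difference between these lists and the complex I subunits was tested.

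Promoters were read for the binding motif of NRF1, a regulator of nuclear genes for mitochondrial proteins, and for the ETS core motif. RefSeq promoters of GRCh38.p14 were matched for 32 of the 37 genes; NDUFS5, NDUFB5, NDUFB9 and NDUFC2 were among those not matched. In the 250 bases before the start, on both strands, the NRF1 consensus (with 1 free base) was found in 5 of 32 members (15.6%) and in 6.20% of 27305 genes. Those members were NDUFA3, NDUFA9, NDUFA11, NDUFA12 and NDUFB4. The ETS letters CCGGAAG were found in 5 members (15.6%), NDUFA1, NDUFA13, NDUFB7, NDUFS1 and NDUFS3, and in 10.2% of all genes. The pair that follows carries the NRF1 consensus (in capitals, matching on either strand) in members whose WT folds run opposite ways in all 4 scalings, NDUFA9 lower and NDUFB4 higher. The first is chr12:4648864-4649113 and the second chr3:120596086-120596335, both on the plus strand and given 5′ to 3′.
NDUFA9: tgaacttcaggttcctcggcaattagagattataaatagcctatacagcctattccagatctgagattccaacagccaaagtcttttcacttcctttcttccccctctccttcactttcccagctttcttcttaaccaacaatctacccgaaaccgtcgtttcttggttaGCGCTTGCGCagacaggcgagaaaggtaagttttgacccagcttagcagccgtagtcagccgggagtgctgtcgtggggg
NDUFB4: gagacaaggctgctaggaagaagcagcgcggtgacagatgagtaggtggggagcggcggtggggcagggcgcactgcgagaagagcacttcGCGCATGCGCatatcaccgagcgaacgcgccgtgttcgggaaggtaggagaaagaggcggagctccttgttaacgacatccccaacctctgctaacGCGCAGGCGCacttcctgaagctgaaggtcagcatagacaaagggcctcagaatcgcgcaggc
The matches are letters in these windows and were not tested for binding.

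Reads could be shared with related rows. The 56 pseudogene rows of members summed to 0.117% of the members' counts, and none had a group mean above 1 CPM. The read-through row NDUFC2-KCTD14 had group means of 3.93 to 11.7 CPM beside NDUFC2, whose lowest group mean was 14.5 CPM, so the NDUFC2 values are uncertain to that extent. The strand setting of the counting was not given in the sources used here.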

How the data were processed

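The data were 24 libraries of cytoplasmic RNA, prepared with KAPA RiboErase and KAPA RNA HyperPrep and sequenced on an Illumina NovaSeq, per the labels' protocols. The authors deposited expected counts per gene, not normalized, of which 73.3% of nonzero values were whole within 0.005. Build hg38, featureCounts 1.5.1, HISAT2 2.1.0, Bowtie2 2.3.5 and SAMtools are listed, without roles, in the submitters' processing notes. Values were rounded to whole numbers. Symbols were assigned to 99.8% of rows.

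edgeR 4.0.16 (R 4.3.3) was fitted as 8 group means over 24 libraries, with filterByExpr, TMM factors, a robust quasi-likelihood fit and Benjamini-Hochberg adjustment over 18907 genes. A contrast of fraction pairs used the mean of log2 group means. The biological coefficient of variation was 13.8%. Shares were compared by exact permutation tests. The fit was tested on simulated data in which groups were alike except for a small set of genes, changed equally often up and down. That setting does not test the scaling where most genes differ, as between the WT fraction pairs here. Alternatives were library totals, totals without 6936 small, ribosomal and mitochondrial RNA rows, median-of-ratios factors, no filter, DESeq2 1.42.0, a replicate block and leaving out each library.

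Members and lists were chosen with earlier results of these data known. Genes given with values and tests were DIS3, core subunits, NDUFA4, the 3 highest and 3 lowest accessory members in each fraction contrast, the 2 highest and 2 lowest in each crossed comparison, and the 2 highest and 2 lowest of each other pathway list in WT. One item is not reported here.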

Additional observations from a re-analysis of the deposited data

Results flagged for a closer look

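The fraction contrast differed between the genotypes by the interaction term of edgeR (D146N minus WT) for all 37 members with TMM, 33 lower and 4 higher. Core subunits differed by 1.27 (NDUFV1, adjusted p = 8.42e-13), -7.07 (NDUFV2, 5.39e-38), 1.2 (NDUFS1, 5.04e-15), -4.59 (NDUFS3, 5.47e-29), -3.06 (NDUFS7, 8.75e-22) and -4.63 (NDUFS8, 2.5e-32) on the log2 scale. The accessory members with the outermost folds differed by 1.12 (NDUFA9, adjusted p = 0.000409), -0.85 (NDUFA5, 5.24e-07), -1.85 (NDUFA13, 6.13e-16), -5.66 (NDUFA11, 1.93e-26), -5.80 (NDUFB11, 1.06e-21) and -5.91 (NDUFB9, 7.09e-33). NDUFA4 differed by -6.86 (adjusted p = 4.78e-22). On library totals the sign of 28 of these 37 differences changed, and among others the signs of NDUFS1, NDUFV1, NDUFA9, NDUFV2, NDUFA4 and NDUFB9 did not change in any of the 4 scalings.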

How the results depend on the processing

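Direction depended on scaling. The counts of members in this section stand without the share of all genes called at the same setting. On library totals, members called higher and lower were 8 and 17 in WT, 35 and 1 in D146N, 30 and 3 for the interaction, 3 and 29 for D146N against WT in fractions 3 and 4 alike, 28 and 2 in fraction 7, 27 and 2 in fraction 8, and 29 and 0 for D146N fractions 7 and 8 against WT 3 and 4. The medians turned to -0.14, 1.25, 1.27, -0.70, -0.71, 0.63 and 0.57 in the first 7 of these contrasts. Over all genes the medians there were -2.83, 3.00, 5.88, -2.85, -2.85, 3.08 and 2.78. Without small, ribosomal and mitochondrial RNA rows in the totals, the counts were 24 and 9 in WT, 18 and 14 in D146N (median turned to 0.15), 12 and 22 for the interaction, 20 and 9, 20 and 7, 12 and 18, and 12 and 17 in fractions 3, 4, 7 and 8, 28 and 0, and 8 and 17 for D146N fractions 3 and 4 against WT 7 and 8. The shares of complex I counts moved to 0.219%, 0.219%, 0.333% and 0.313% in WT and 0.280%, 0.275%, 0.266% and 0.266% in D146N with that denominator. On totals without those rows the median gene changed by -2.09 in WT, 1.90 in D146N and 4.04 for the interaction. For D146N against WT it changed by -1.84, -1.82, 2.21 and 2.03 in fractions 3, 4, 7 and 8.

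On library totals 19 called members changed sign in WT and 32 in D146N. Among the genes followed by name, those that turned were, in WT, NDUFS3 -0.14, NDUFS7 -1.09, NDUFS8 -0.25, NDUFA5 -2.05, NDUFA13 -1.43 and MT-ND3 -1.16. In D146N they were NDUFS3 0.84, NDUFS7 1.44, NDUFS8 0.72, NDUFA4 0.019, NDUFA11 0.47, NDUFB11 0.33, NDUFB9 0.13, NDUFA5 2.71, NDUFA13 2.34, NDUFAB1 0.43, MT-ND3 0.70, MT-ND2 1.81 and MT-ND4L 1.83. On totals without small, ribosomal and mitochondrial RNA rows they were, in WT, NDUFS7 -0.38, NDUFA5 -1.33, NDUFA13 -0.70 and MT-ND3 -0.44, and in D146N NDUFS7 0.35, NDUFA5 1.62, NDUFA13 1.25, MT-ND2 0.71 and MT-ND4L 0.74. NDUFV2 turned to 0.034 for D146N fractions 3 and 4 against WT 7 and 8. These turns follow from the scaling, which shifts all genes.

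Median-of-ratios factors and DESeq2 kept each count of called members within 1.5 times. With no filter, the single lower call of D146N fractions 7 and 8 against WT 3 and 4 became 0 and WT 8 against 7 gained 1 higher. The replicate numbers did not pair the libraries: deviations of same-numbered libraries of a genotype correlated at -0.0435 to 0.0221. The replicate block gave 33 higher and 4 lower in WT and 4 and 33 in D146N, and moved no count by over 1.5 times.

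Leaving out each library in turn gave, for higher and lower, 33 and 4 in WT, 3 to 4 and 32 to 33 in D146N, 4 and 33 for the interaction, 32 to 33 and 3 to 4 in fractions 3 and 4, 4 and 32 to 33 in fraction 7, and 3 to 4 and 32 to 33 in fraction 8. For D146N fractions 7 and 8 against WT 3 and 4 it gave 17 to 27 and 0 to 1. WT 8 against 7 gave 0 to 1 in each direction, with medians of -0.31 to 0.018, the upper one, of the other sign, without replicate 3 of fraction 8. The highest and lowest calls came without replicate 1 or 2 of that fraction. D146N 3 and 4 against WT 7 and 8 gave 2 to 3 and 20 to 26. Each such fit leaves 2 libraries in 1 group. Of the members' medians in these fits, 239 stayed within the members' median standard error of the main value. Another 72 moved by more, and 1 whose main value exceeded that error changed sign. Depth limited NDUFA6, with group means of at most 1.45 CPM.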
